A study of Mus musculus with 292 samples.

Results

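The livers compared here were taken at 2 times of day, ZT0 and ZT12. ZT, zeitgeber time, counts hours from the daily light signal, and by convention ZT0 is lights-on and ZT12 is lights-off. All liver libraries labelled ZT0 (12) and ZT12 (12) were used, 24 of the 292 libraries of the series. Every mouse was a wild type C57BL/6J male of 26 weeks with no treatment named in the labels, and each liver came from a different animal. Sampling ran over 36 h, so each group joins 2 cycles: 6 ZT0 livers at 0 h and 6 at 24 h, and 6 ZT12 livers at 12 h and 6 at 36 h. Total RNA of the frozen tissue was the source of the libraries, which the labels call mRNA, and p-values below measure the spread between mice. The series also holds cortex, striatum and hypothalamus. Cortex and hypothalamus of the same 24 mice serve below as the comparison.

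The mammalian clock is a feedback loop of transcription. ARNTL (also called BMAL1) pairs with CLOCK or NPAS2 and binds E-box DNA elements in the genes of its own repressors, the PER and CRY proteins and the nuclear receptors NR1D1 and NR1D2. The NR1D receptors in turn repress Arntl through elements that they share with the ROR activators, and the factors DBP, TEF and HLF drive D-box genes that NFIL3 represses. In the liver this loop runs together with feeding, which in mice falls mostly in the dark, so that ZT0 is close to the end and ZT12 to the start of the nightly meal. Lipid, glucose, bile acid and drug metabolism are known to follow both.

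Each library held 28.6 to 41.9 M gene counts. Levels below are CPM, the count of a gene scaled by the total of its library, or, where named, FPKM, which also divides by gene length. On the first principal component of log2(CPM + 1), 57.0% of the variance, the ZT0 libraries lay between 20.3 and 28.1 and the ZT12 libraries between -31.5 and -20.0, with no overlap. Hepatocyte markers were abundant at both times: Alb, the albumin gene, had a median of 82563 CPM at ZT0 and 82039 CPM at ZT12. Of 10 exocrine pancreas markers, 8 stayed under 0.5 CPM in every library, as did 5 of 6 skeletal muscle markers, and Snap25, a synaptic gene, had a median of 0 in both groups. A set of 3 libraries stood apart from the other 21 within their groups, ZT0 replicate 9 and ZT12 replicates 4 and 6. They held 1.39 to 1.67 CPM of the major urinary protein gene Mup17 against 96.5 to 646 CPM in the others, and 22.9 to 41.7 CPM of the asparagine synthetase gene Asns against 0.71 to 5.28 CPM. Results were recomputed without these libraries, a choice made after seeing the data, and are given where they differ.

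More genes differed between the 2 times than did not. Of 14772 genes tested, 4233 were higher at ZT0 (28.7%) and 4182 were higher at ZT12 (28.3%) at an adjusted p under 0.05, by edgeR's quasi-likelihood test with Benjamini-Hochberg adjustment. These shares, 57.0% for either direction, are the reference for the counts of list members below. Without the 3 libraries that stood apart, 8383 genes were called against 8415. Most differences were small: the median fold of the called genes was 1.29, and 1223 genes were at least 1.5-fold higher at ZT0 (8.28%) and 956 at ZT12 (6.47%). At 8-fold or more there were 17 genes higher at ZT0 and 18 higher at ZT12. For 1087 genes all 12 ZT0 libraries lay above all 12 ZT12 libraries (7.36%), and for 738 genes the order was the other way round (5%). Whether the ZT0 to ZT12 difference changed between the cycles was tested as well, which does not show the cycles to be alike. No gene had a ZT0 to ZT12 difference that changed between the cycles at an adjusted p under 0.05 by edgeR or DESeq2. In this test 1044 genes (7.07%) had an unadjusted p under 0.05 by edgeR and 1067 by DESeq2. Of the 1223 genes at least 1.5-fold higher at ZT0, 1028 were called in each cycle alone, as were 815 of the 956 higher at ZT12. Of all called genes these were 2332 of 4233 and 2261 of 4182. The genes were chosen with the libraries of both cycles, which favours a call in each, so these counts are no independent repeat.

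**Figure D1:**
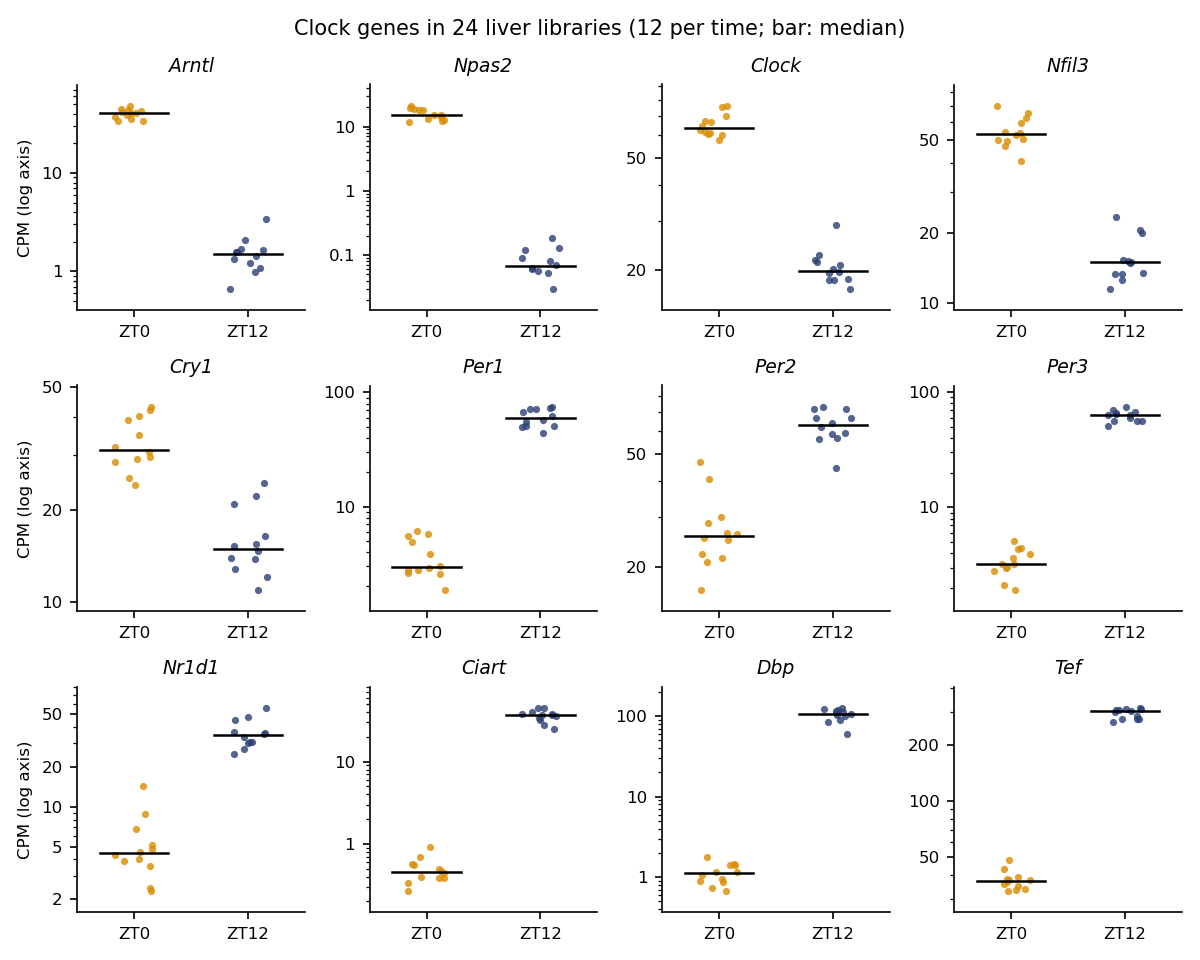
Levels of 12 clock genes in each of the 24 liver libraries, in CPM on a log axis, with ZT0 in orange, ZT12 in blue and a bar at the group median (n = 12 each). Arntl, Npas2, Clock and Nfil3 are higher at ZT0 and Per1, Per3, Nr1d1, Ciart, Dbp and Tef are higher at ZT12 with no overlap, whereas the ranges of Cry1 and Per2 overlap.

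The 3 activators of the clock were all higher at ZT0. Npas2 (chr1:39193731-39363236, GRCm38, plus strand) ranged from 11.7 to 20.6 CPM at ZT0 with a median of 15.2, and from 0 to 0.187 CPM at ZT12 with a median of 0.0666. The 12 ZT12 libraries held 32 Npas2 counts in all, so the fitted log2 ratio of 7.53 ± 0.18 (standard error, SE; adjusted p = 3.3e-22) rests on few counts on that side. Arntl (chr7:113207465-113314126, plus strand) ranged from 33.9 to 47.6 CPM at ZT0, median 40.9, and from 0.668 to 3.44 CPM at ZT12, median 1.49, a 24.9-fold difference (log2 4.64 ± 0.15, adjusted p = 3.3e-19). Clock moved less, from a median of 19.9 CPM at ZT12 (17.2 to 29) to 63.6 CPM at ZT0 (57.6 to 76), 3.07-fold. The groups did not overlap for any of the 3 genes. Here and below, each of the 2 groups has 12 libraries and SE is that of the edgeR fit.

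Of the 10 repressors of the clock, 9 were higher at ZT12 and only Cry1 was higher at ZT0. Ciart (chr3:95878503-95882251, minus strand), which encodes a repressor of the ARNTL and CLOCK pair, ranged from 0.27 to 0.913 CPM at ZT0, median 0.456, and from 24.7 to 44.3 CPM at ZT12, median 36.7. That is 75.1-fold (log2 -6.23 ± 0.14 for ZT0 over ZT12, adjusted p = 6.5e-23), and every ZT12 library was above every ZT0 library. The period genes Per1 and Per3 were 16.8-fold and 18.8-fold higher at ZT12 with no overlap. Per2 was only 2.34-fold higher (log2 -1.23 ± 0.13, adjusted p = 4.4e-09), from 16.7 to 46.9 CPM at ZT0 and from 44.6 to 72.9 CPM at ZT12, so that its ranges met. The receptor gene Nr1d2 rose 12.4-fold and Nr1d1 6.86-fold at ZT12. Nr1d1 shares 8.55% of its exonic bases with the thyroid receptor gene Thra on the other strand, and neither labels nor headers say whether counting used strand.

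The cryptochromes, which block the activators directly, moved in opposite directions. Cry1 was higher at ZT0, at 24 to 42.9 CPM with a median of 31.3 against 11 to 24.4 CPM with a median of 14.9 at ZT12, which is 2.01-fold (adjusted p = 7.7e-08) with overlapping ranges. Cry2 was 2-fold higher at ZT12 with no overlap (adjusted p = 4.6e-12). Bhlhe40 and Bhlhe41, E-box repressors, were 2.06-fold and 5.33-fold higher at ZT12.

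Among 14 other clock and output factors, Nfil3 was the 1 called higher at ZT0, 8 were higher at ZT12 and 5 were not called. Dbp (chr7:45705088-45710203, plus strand) had the largest difference of the group, from 0.681 to 1.78 CPM at ZT0 (median 1.11) against 59.6 to 125 CPM at ZT12 (median 108), 95.4-fold (log2 -6.58 ± 0.15, adjusted p = 6.5e-23). It shares 18.0% of its exonic bases with Sphk2. The related activators Tef and Hlf were 8.03-fold and 1.64-fold higher at ZT12, each with no overlap. Nfil3, the repressor at the same D-box elements, was 3.35-fold higher at ZT0 (log2 1.74 ± 0.11, adjusted p = 1.8e-13), with a lowest ZT0 library at 40.5 CPM and a highest ZT12 library at 23.4 CPM. The deubiquitinase gene Usp2 was 17.5-fold higher at ZT12, and Klf10 and Klf15, Krüppel-like factors, were 3.15-fold and 1.62-fold higher. Rora, Csnk1d, Csnk1e, Fbxl21 and Timeless did not pass the test, with log2 ratios between -0.08 and 0.05. Per length, Klf15 stood at a mean level of 66.0 FPKM at ZT12, Tef at 37.3 and Dbp at 34.8 FPKM. At ZT0 Klf15 stood at 42.1 FPKM and Nfil3 at 26.9 FPKM, whereas Arntl reached only 5.32 FPKM.

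Promoters that hold letters of the elements through which the loop is known to work are shown, beside the 1 sterol element found among cholesterol synthesis genes. RefSeq windows on GRCm38.p6 run from 250 bases before to 50 bases after each start, and 21 of the 27 members of the clock lists had at least 1 window. Letters were searched on both strands: the E-box CACGTG, the D-box TTANGTAA, the core of the ROR element TAGGTCA or TGGGTCA, and the sterol element TCACNCCAC. An E-box occurred in windows of Ciart (3 copies), Klf15 (3 copies), Per1, Cry1, Bhlhe41 and Tef, a D-box in those of Per3 (2 copies) and Timeless, and a ROR core in those of Arntl and Nfil3. The windows of the other 11 members, Clock, Npas2, Cry2, Nr1d1, Nr1d2, Dbp, Hlf, Usp2, Rora, Csnk1e and Fbxl21, held none of these 3 motifs, although Cry2, Nr1d1, Nr1d2, Dbp, Hlf and Usp2 were higher at ZT12 and Clock and Npas2 at ZT0. All but Cry1 and Timeless among the E-box and D-box genes were called higher at ZT12, and both genes with a ROR core were higher at ZT0. Cry1 has an E-box and was higher at ZT0. In the cholesterol synthesis list, Dhcr7, Hsd17b7, Insig1 and Sc5d had an E-box and Dhcr7 and Mvk a ROR core, and all 5 of these genes were higher at ZT0. A match describes the letters and is no proof of a binding site. The bases before the start are printed 5′ to 3′ on the strand of the gene with the matched letters in capitals, except for Arntl, whose match lies 30 bases after the start and is printed with its neighbours only.
Ciart, E-box, chr3:95882229-95882478, minus strand: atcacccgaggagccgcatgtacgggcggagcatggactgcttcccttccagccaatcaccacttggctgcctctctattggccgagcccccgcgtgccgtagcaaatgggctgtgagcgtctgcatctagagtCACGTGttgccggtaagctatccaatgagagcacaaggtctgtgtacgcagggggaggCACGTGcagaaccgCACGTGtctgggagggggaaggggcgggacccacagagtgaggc
Per1, E-box, chr11:69098699-69098948, plus strand: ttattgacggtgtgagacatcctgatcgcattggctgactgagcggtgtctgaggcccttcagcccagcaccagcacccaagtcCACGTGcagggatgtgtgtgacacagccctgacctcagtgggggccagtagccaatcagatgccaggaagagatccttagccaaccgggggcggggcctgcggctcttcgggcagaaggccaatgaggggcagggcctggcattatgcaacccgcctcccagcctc
Tef, E-box, chr15:81802423-81802672, plus strand: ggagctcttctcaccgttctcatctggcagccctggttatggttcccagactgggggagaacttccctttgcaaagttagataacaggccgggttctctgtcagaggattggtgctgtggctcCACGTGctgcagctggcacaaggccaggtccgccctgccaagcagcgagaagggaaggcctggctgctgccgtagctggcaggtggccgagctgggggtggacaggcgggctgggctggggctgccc
Per3, D-box, chr4:151044666-151044915, minus strand: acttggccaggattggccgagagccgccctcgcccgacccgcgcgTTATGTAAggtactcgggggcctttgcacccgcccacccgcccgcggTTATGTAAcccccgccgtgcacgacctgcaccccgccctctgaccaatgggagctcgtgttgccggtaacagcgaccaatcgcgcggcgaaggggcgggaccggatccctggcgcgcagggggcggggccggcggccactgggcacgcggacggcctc
Arntl, ROR element core, chr7:113207530-113207559, plus strand: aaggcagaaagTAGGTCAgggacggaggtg
Nfil3, ROR element core, chr13:52981040-52981289, minus strand: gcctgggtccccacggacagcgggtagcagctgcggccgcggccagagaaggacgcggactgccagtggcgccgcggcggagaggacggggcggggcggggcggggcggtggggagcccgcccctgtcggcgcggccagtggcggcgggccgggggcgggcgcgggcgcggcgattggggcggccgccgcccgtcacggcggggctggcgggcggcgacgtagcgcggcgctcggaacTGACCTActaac
Hmgcs1, sterol element, chr13:119690101-119690350, plus strand: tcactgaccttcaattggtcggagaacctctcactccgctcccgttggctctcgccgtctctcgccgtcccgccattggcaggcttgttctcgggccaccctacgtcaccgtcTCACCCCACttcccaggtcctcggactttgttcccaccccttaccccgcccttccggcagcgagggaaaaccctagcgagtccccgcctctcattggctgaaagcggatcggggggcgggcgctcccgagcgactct

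In all 32851 windows an E-box occurred in 7.15%, a D-box in 2.32%, a ROR core in 6.45% and a sterol element in 1.24%. In windows of genes at least 1.5-fold higher at ZT12 the E-box share was 11.9% (104 of 875), and in those at least 1.5-fold higher at ZT0 it was 8.22% (87 of 1059), against 9.70% for all genes tested. The ROR core went the other way, at 7.65% of windows of genes higher at ZT0 and 4.11% of those higher at ZT12, against 5.24% for genes tested. The D-box stood at 1.98% and 2.06%, against 1.64%. These shares are descriptions with no test.

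**Figure D2:**
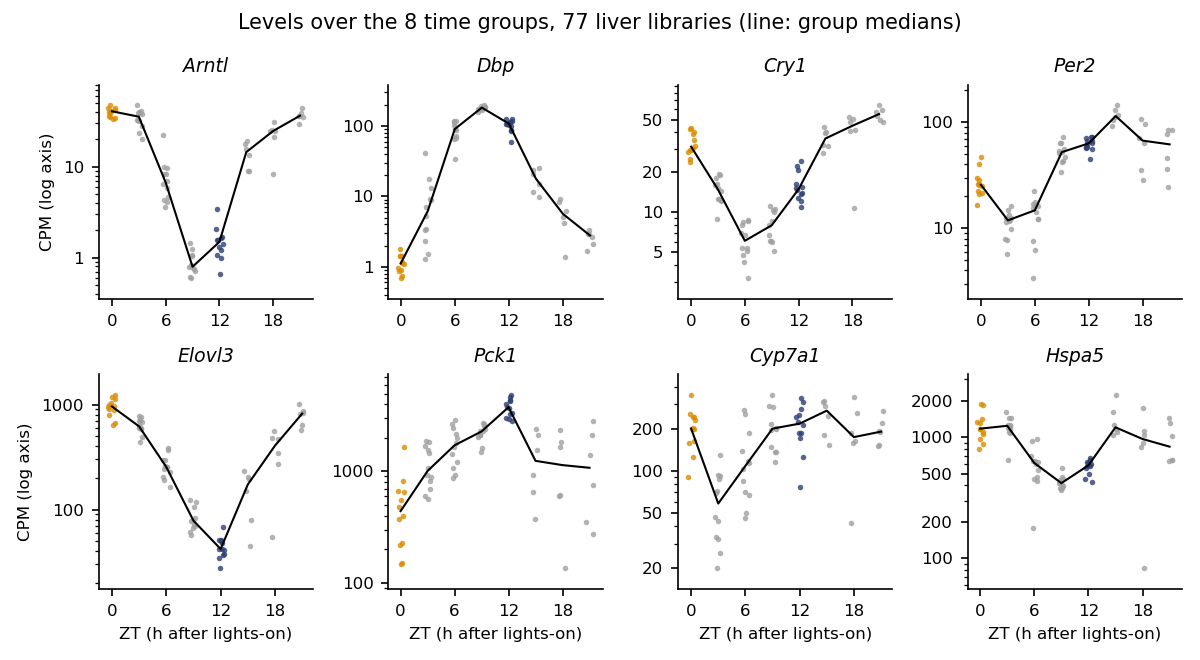
Levels of 8 genes over the 8 time groups of the liver, in CPM on a log axis against ZT in hours, with 1 point per library (77 libraries, 6 to 12 per group; ZT0 orange, ZT12 blue, others grey) and a line through the group medians. Arntl, Elovl3 and Pck1 lie near an end of their range at ZT0 and at ZT12, while Cry1, Per2 and Cyp7a1 have their highest median at another time.

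ZT0 and ZT12 were near the extremes of the day for many, but not all, of these genes. Among the 1223 genes at least 1.5-fold higher at ZT0, the median over libraries was highest at ZT0 for 49.0%, at ZT3 for 26.3% and at ZT21 for 13.4% of them. Among the 956 genes higher at ZT12, it was highest at ZT12 for 58.1% and at ZT9 for 26.0%. Both sets were chosen by their levels in these same ZT0 and ZT12 libraries, which favours a highest median at the time of the call. The shares therefore describe the chosen genes only. Dbp had its highest median at ZT9 (182 CPM) and Per2 at ZT15 (114 CPM). Nr1d1 reached 163 CPM at ZT6, so its medians of 4.45 CPM at ZT0 and 34.6 CPM at ZT12 both lie low in its range. Cry1 was highest at ZT21 (55.1 CPM) and lowest at ZT6 (6.09 CPM). The 2-time comparison therefore gives less than the full daily range for such genes. The ZT15, ZT18 and ZT21 groups had 6 libraries each, all from the first cycle. Over all 77 liver libraries the lowest total was 11.7 M counts, against 28.6 M in the 24 compared. The transcript Gm42418 took up to 62.3% of the counts of a library, against at most 1.95% in the 24. At ZT18 the lowest library held 83.0 CPM of Hspa5 and the next 831 CPM.

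Genes of cholesterol synthesis were higher at ZT0. Of 25 tested, 21 were higher at ZT0 and 2 at ZT12, and the median log2 ratio of the list was 0.61, against 0.0087 over all genes tested. Hmgcs1 (chr13:119690379-119708260, plus strand), the enzyme that makes the HMG-CoA of the pathway, ranged from 391 to 949 CPM at ZT0 (median 634) and from 103 to 222 CPM at ZT12 (median 167), 3.88-fold with no overlap (log2 1.96 ± 0.14, adjusted p = 2.2e-12). The sterol element in its printed promoter was the 1 such match among the 17 members of the list with a window. Mvd, mevalonate diphosphate decarboxylase, was 3.99-fold higher at ZT0 and Pmvk, phosphomevalonate kinase, 2.13-fold, both with no overlap. Srebf2, the factor that activates the pathway, was 1.59-fold higher at ZT0 (63.5 to 80.3 CPM against 34.4 to 53.3 CPM). Stard4, a sterol carrier, went the other way, at 109 to 156 CPM at ZT0 and 122 to 179 CPM at ZT12, with overlapping groups (log2 -0.29 ± 0.06, adjusted p = 0.00014).

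Fatty acid synthesis was higher at ZT0 for most of its enzymes and lower for some desaturation and elongation enzymes. Of 20 genes tested, 12 were higher at ZT0 and 4 at ZT12 (median log2 ratio 0.55). Elovl3 (chr19:46131897-46135694, plus strand), an elongase of long saturated fatty acids, ranged from 643 to 1231 CPM at ZT0 (median 959) and from 27.5 to 68.5 CPM at ZT12 (median 42), 20.8-fold with no overlap (log2 4.38 ± 0.14, adjusted p = 1.8e-19). Elovl5, an elongase of polyunsaturated fatty acids, was 2.36-fold higher at ZT0 with no overlap. Fasn, fatty acid synthase, ranged from 731 to 1760 CPM at ZT0 and from 298 to 1192 CPM at ZT12 (log2 0.93 ± 0.20, adjusted p = 0.00022), so that its groups overlapped. Acly, which supplies acetyl-CoA, and Acacb, an acetyl-CoA carboxylase, were 1.85-fold and 1.88-fold higher at ZT0. Acaca, the other acetyl-CoA carboxylase on the list, was not called (log2 -0.15, adjusted p = 0.17). Scd1, the stearoyl-CoA desaturase, had the largest difference in mean CPM among called genes, with a mean of 12640 CPM at ZT0 and 7507 CPM at ZT12 (log2 0.71 ± 0.12). Fads2, the delta-6 desaturase, was 1.85-fold higher at ZT12 with no overlap, and Thrsp and Elovl6 were 1.87-fold and 1.48-fold higher there with overlap.

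**Figure D3:**
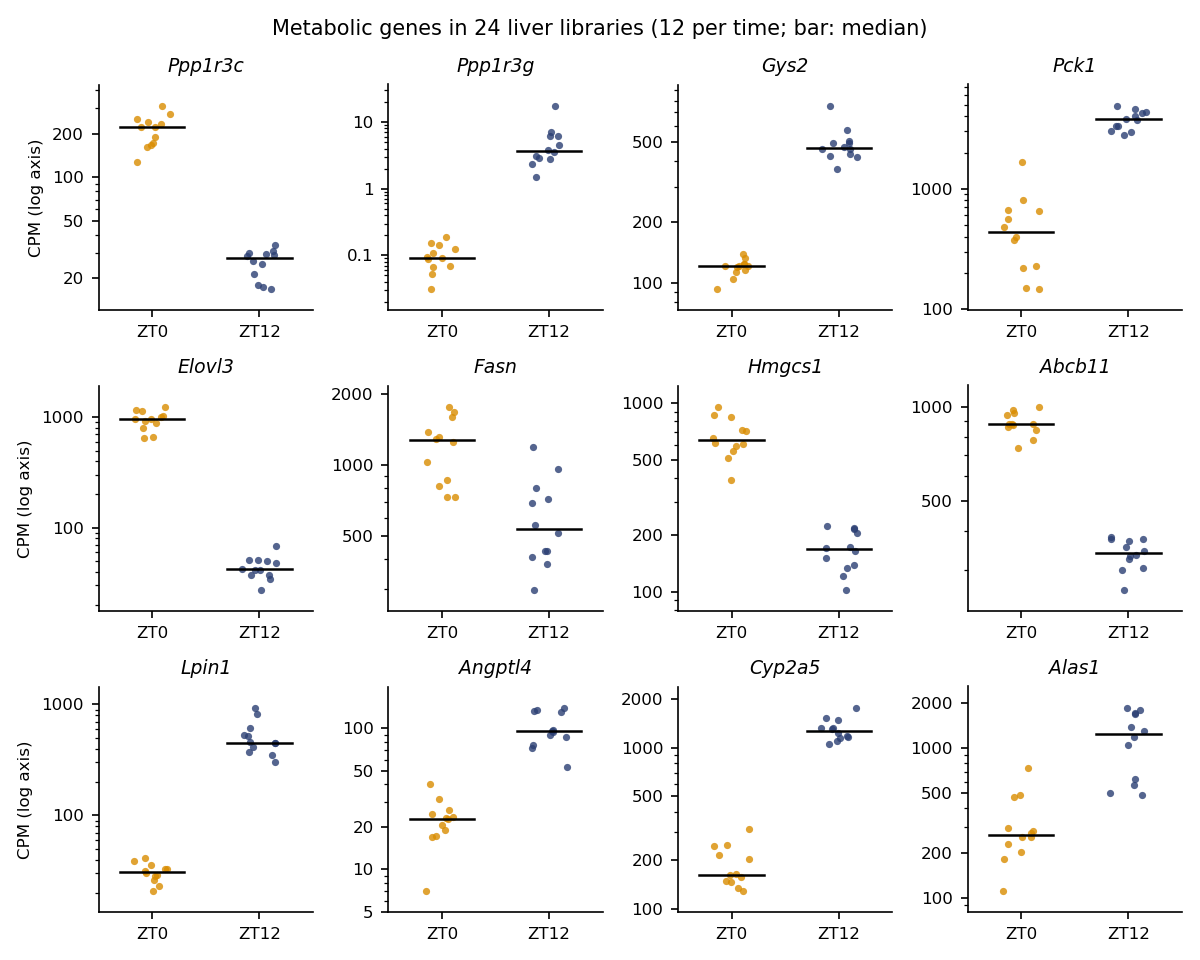
Levels of 12 metabolic genes in each of the 24 liver libraries, in CPM on a log axis, with ZT0 in orange, ZT12 in blue and a bar at the group median (n = 12 each). Ppp1r3c, Elovl3, Hmgcs1 and Abcb11 are higher at ZT0 and Ppp1r3g, Gys2, Pck1, Lpin1, Angptl4 and Cyp2a5 at ZT12 with no overlap, while Fasn and Alas1 overlap.

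The genes of glucose and glycogen metabolism moved in both directions. Of 20 tested, 6 were higher at ZT0 and 11 at ZT12. The clearest contrast was among the targeting subunits that bring protein phosphatase 1 to glycogen. Ppp1r3c ranged from 128 to 309 CPM at ZT0 (median 222) and from 17 to 34 CPM at ZT12 (median 27.4), 8.12-fold higher at ZT0 (log2 3.02 ± 0.14, adjusted p = 8.7e-16). Ppp1r3g ranged from 0.0318 to 0.19 CPM at ZT0 and from 1.51 to 17.2 CPM at ZT12, 49.6-fold higher at ZT12 (log2 -5.63 ± 0.42, adjusted p = 8.4e-12), where the 12 ZT0 libraries held 41 counts in all. Neither gene's groups overlapped, and Ppp1r3b, another subunit, was 1.76-fold higher at ZT0 with overlap. Gys2, the glycogen synthase of liver, was 4.23-fold higher at ZT12 with no overlap (93.5 to 138 CPM against 365 to 750 CPM). Pygl, glycogen phosphorylase, was 1.28-fold higher at ZT0.

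Pck1, the enzyme that commits carbon to gluconeogenesis, had a median of 439 CPM at ZT0 and 3770 CPM at ZT12. Its lowest ZT12 library, at 2808 CPM, was above its highest ZT0 library, at 1656 CPM, and the difference was 7.36-fold (log2 -2.88 ± 0.31, adjusted p = 7.8e-09). The glucose transporter Slc2a2 and the glucose-6-phosphate transporter Slc37a4 were 2.03-fold and 2.33-fold higher at ZT12 with no overlap. G6pc, the glucose-6-phosphatase that completes the pathway, was not called (log2 -0.38 ± 0.23, adjusted p = 0.17), with 160 to 582 CPM at ZT0 and 161 to 768 CPM at ZT12. Of the glycolytic genes, Pfkfb3, which makes an activator of glycolysis, and Pklr, pyruvate kinase, were 5.04-fold and 1.67-fold higher at ZT12.

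Fatty acid oxidation was higher at ZT12, mostly by small amounts. Of 28 genes tested, 19 were higher at ZT12 and 2 at ZT0, with a median log2 ratio of -0.25. Cpt1a, which admits fatty acids to mitochondria, ranged from 167 to 259 CPM at ZT0 and from 448 to 554 CPM at ZT12, 2.48-fold with no overlap (log2 -1.31 ± 0.06, adjusted p = 1.3e-15). Ppara, the receptor that activates the pathway, was 1.70-fold higher at ZT12. Pdk4, which blocks entry of pyruvate and so favours fatty acid use, was 9.08-fold higher at ZT0 with no overlap (24.6 to 53.9 CPM against 2.4 to 6.03 CPM). Cpt2, the carnitine palmitoyltransferase of the inner mitochondrial membrane, was the other member higher at ZT0, at 1.13-fold with overlap. Cyp4a10 and Cyp4a14, further targets of PPARA, were not called.

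Genes of triglyceride handling moved both ways, 6 higher at ZT0 and 9 higher at ZT12 of 25 tested. That called share, 60%, is near the 57.0% of all genes tested. Lpin1, a phosphatidate phosphatase and co-regulator, was 17.2-fold higher at ZT12 with no overlap (median 30.7 CPM at ZT0 and 451 CPM at ZT12). Lpin2, its relative, was 4.45-fold higher at ZT12, and Pnpla2, the first triglyceride lipase, 2.35-fold. The inhibitors of lipoprotein lipase differed in direction: Angptl4 was 4.56-fold higher at ZT12 (log2 -2.19 ± 0.20, adjusted p = 3.2e-10), and Angptl8 was 2.12-fold higher at ZT0 (log2 1.08 ± 0.39, adjusted p = 0.020) with wide overlap, from 56.8 to 313 CPM against 10.6 to 246 CPM. Plin2, a lipid droplet coat protein, was 1.52-fold higher at ZT0. Apob, Apoa1 and Mttp, of lipoprotein assembly, were not called. When libraries were scaled by their totals alone, 10 members were higher at ZT0.

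In bile acid metabolism, 4 of 18 genes were higher at ZT0 and 8 at ZT12, a called share of 66.7% against 57.0% of all genes tested. Cyp7a1, the rate-limiting enzyme of bile acid synthesis, was not called (log2 -0.12 ± 0.20, adjusted p = 0.63), at 89.4 to 348 CPM at ZT0 and 76 to 333 CPM at ZT12. Its median fell to 58.1 CPM at ZT3 and was 201 and 217 CPM at the 2 times compared. Abcb11, the bile salt export pump, was 2.53-fold higher at ZT0 with no overlap (738 to 997 CPM against 259 to 383 CPM). Cyp8b1, which sets the share of cholic acid, was 1.53-fold higher at ZT0. Abcg5 and Abcg8, the 2 subunits of the sterol exporter, lie side by side on chromosome 17 and were 2.87-fold and 2.30-fold higher at ZT12, although the highest ZT0 libraries, at 132 and 144 CPM, lay above the ZT12 medians of 124 and 114 CPM. Without the 3 libraries that stood apart, their log2 ratios were -1.81 and -1.46 in place of -1.52 and -1.20. Hsd3b7 was 2.57-fold higher at ZT0, but 99.2% of its exonic bases are shared with overlapping gene models, so its counts are uncertain.

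Several oxidative enzymes of drug metabolism, and Alas1 for their supply of heme, were higher at ZT12. Por, the reductase that feeds electrons to all microsomal P450 enzymes, ranged from 98.8 to 178 CPM at ZT0 and from 583 to 743 CPM at ZT12, 5.25-fold with no overlap (log2 -2.39 ± 0.09, adjusted p = 2.6e-18). Alas1, the rate-limiting enzyme of heme synthesis, had medians of 265 and 1241 CPM and was 3.87-fold higher at ZT12 (log2 -1.95 ± 0.28, adjusted p = 1.1e-06), with ranges of 112 to 736 CPM and 490 to 1850 CPM that overlapped. Cyp2a5, a coumarin hydroxylase, was 7.10-fold higher at ZT12 with no overlap (130 to 314 CPM against 1048 to 1758 CPM). Its near-identical neighbour Cyp2a4 was counted at 0.0327 CPM at ZT0 and 0.623 CPM at ZT12 in the median, and reads of the pair can be split in counting, so both values are uncertain. Cyp2e1, which oxidizes ethanol and acetone, had the largest difference in mean CPM among genes called higher at ZT12, a mean of 5430 against 10205 CPM. Of 24 P450 genes and electron donors tested, 5 were higher at ZT0 and 9 at ZT12. That called share, 58.3%, is near the 57.0% of all genes tested. Cyp3a11, Cyp2f2 and Cyp1a2 were not called. Without the 3 libraries that stood apart Cyp1a2 passed, with a log2 ratio of -0.33 (adjusted p = 0.0081).

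Conjugating enzymes and xenobiotic receptors followed, with 16 of 25 higher at ZT12 and 3 at ZT0 (median log2 ratio -0.35). Nr1i2, the pregnane X receptor, was 1.59-fold higher at ZT12 with no overlap. Nr1i3, the constitutive androstane receptor, was 2.28-fold higher, but 74.9% of its exonic bases are shared with Tomm40l. Gstt2, a glutathione transferase, was 2.29-fold higher at ZT12. Among 21 genes of heme and iron, 5 were higher at ZT0 and 9 at ZT12. Hamp, which encodes the iron hormone hepcidin, was 1.67-fold higher at ZT12, and Uros, a later enzyme of heme synthesis, was 1.68-fold higher at ZT0.

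The genes of NAD metabolism divided evenly, 7 higher at each time of 16 tested. Nampt, the rate-limiting enzyme of NAD salvage, ranged from 47.3 to 59.3 CPM at ZT0 and from 145 to 215 CPM at ZT12, 3.48-fold with no overlap (log2 -1.80 ± 0.06, adjusted p = 3.7e-19). Nmrk1, which starts NAD synthesis from nicotinamide riboside, was 2.34-fold higher at ZT12. In the route from tryptophan, Kynu was 1.66-fold and Acmsd, which diverts the intermediate away from NAD, 2.50-fold higher at ZT0. The deacetylase genes Sirt1 and Sirt3 were 1.38-fold and 1.43-fold higher at ZT12.

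Amino acid breakdown was higher at ZT12 for 16 of 24 genes and higher at ZT0 for 4. Sds, serine dehydratase, was 2.55-fold higher at ZT12 and Got1, aspartate aminotransferase, 1.82-fold, each with overlap. Gpt2, a mitochondrial alanine aminotransferase, was 1.6-fold higher at ZT12 with no overlap. Hal, histidine ammonia-lyase, was 1.79-fold higher at ZT0 (531 to 823 CPM against 273 to 410 CPM).

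The genes that handle methyl groups and choline leaned to ZT0, 9 of 18 against 4. Chka, choline kinase, ranged from 173 to 233 CPM at ZT0 and from 13.2 to 28.7 CPM at ZT12, 9.95-fold with no overlap (adjusted p = 2.9e-21). Bhmt, which remethylates homocysteine with betaine, and Cbs, which removes homocysteine, were 2.38-fold and 1.99-fold higher at ZT0 with no overlap. Mat1a, which makes S-adenosylmethionine, and Ahcy, which hydrolyses its product, were 1.48-fold and 1.5-fold higher at ZT12.

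Chaperone genes were higher at ZT0 in both compartments tested. Of 20 genes of the endoplasmic reticulum (ER), 16 were higher at ZT0 and 1 at ZT12, with a median log2 ratio of 0.60. Hspa5, the main ER chaperone, ranged from 790 to 1870 CPM at ZT0 (median 1173) and from 426 to 673 CPM at ZT12 (median 585), 2.11-fold with no overlap (log2 1.08 ± 0.12, adjusted p = 1.6e-08). Sdf2l1 was 4.62-fold, Pdia4, a disulfide isomerase, 2.38-fold and Calr, calreticulin, 2.04-fold higher at ZT0, all with no overlap. Herpud1, a component of ER-associated degradation, was 2.15-fold higher at ZT12 with no overlap, and Xbp1 was not called. Of 20 cytosolic chaperones, 14 were higher at ZT0 and none at ZT12. Hsp90aa1 was 2.26-fold higher at ZT0 with no overlap (51.2 to 95.9 CPM against 20.4 to 38.3 CPM) and Hspb1 2.52-fold, while Hspa1a, Hspa8 and Dnajb1 were not called (Hspa8 log2 0.26 ± 0.12, adjusted p = 0.060). Hspa8 passed without the 3 libraries that stood apart (adjusted p = 0.031) and with library totals (adjusted p = 0.029).

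**Figure D4:**
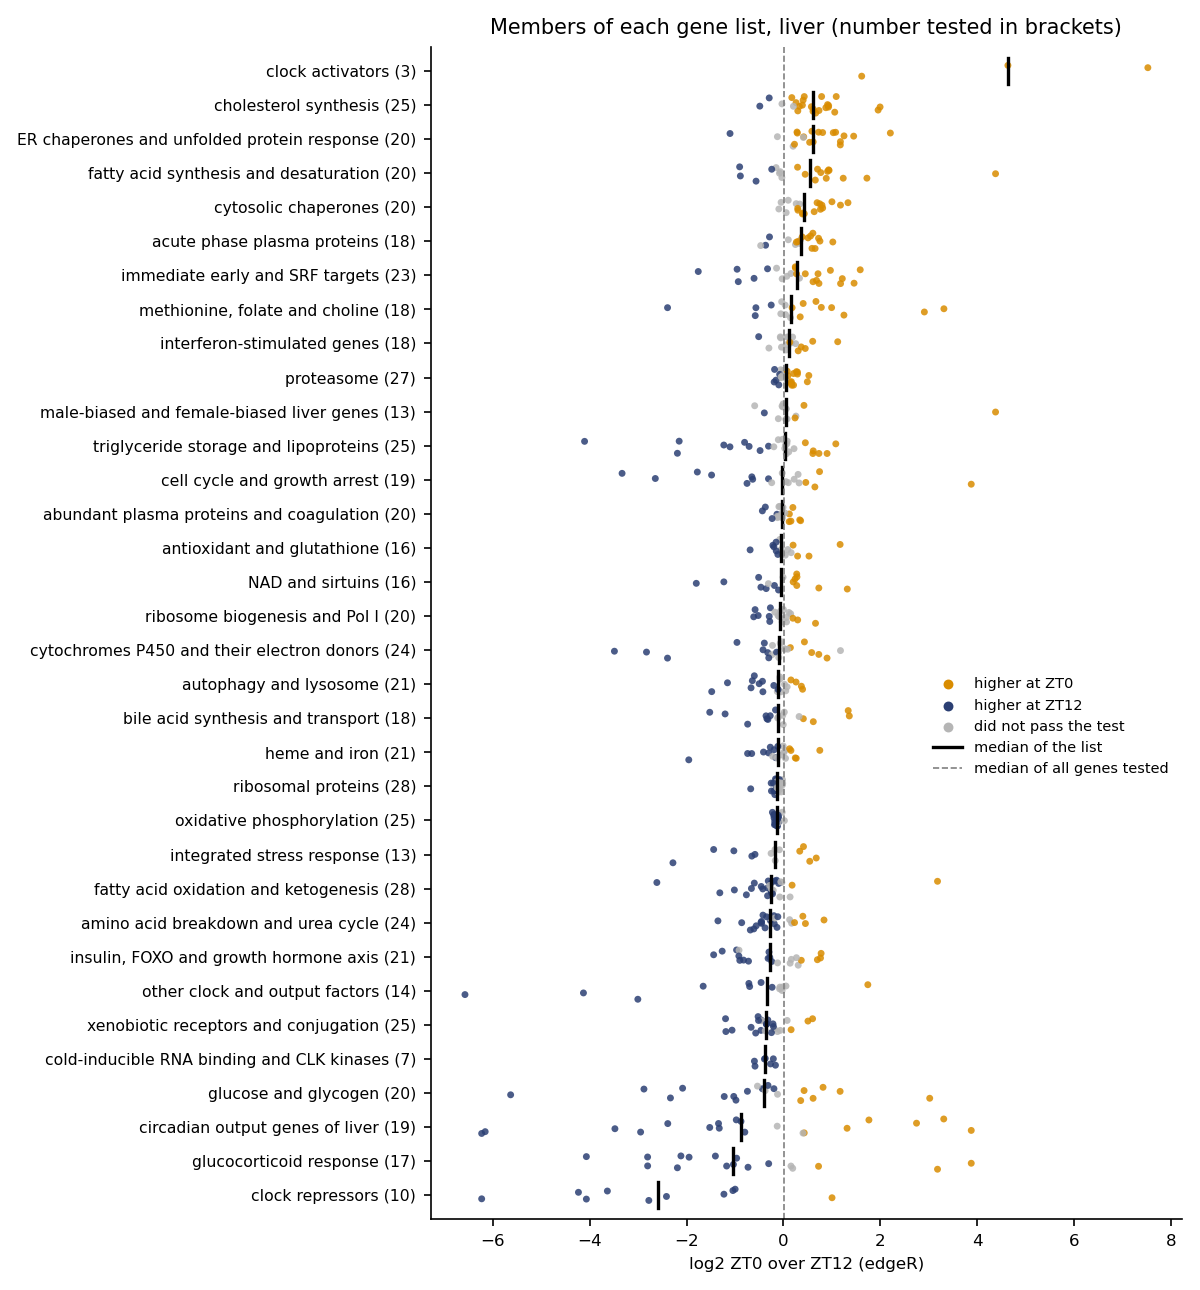
Log2 ratio of ZT0 over ZT12 for each tested member of 34 gene lists, ordered by the median of the list (black bar), with members higher at ZT0 in orange, members higher at ZT12 in blue and members that did not pass the test in grey. The dashed line is the median of all genes tested (0.0087). Clock activators, cholesterol synthesis and ER chaperones lie furthest to the right and clock repressors furthest to the left.

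Immediate early genes and targets of the serum response factor SRF included 13 higher at ZT0 and 5 higher at ZT12 of 23. Actb, cytoplasmic actin, was 1.96-fold higher at ZT0 with no overlap (494 to 825 CPM against 269 to 386 CPM) and Vcl, vinculin, 1.61-fold. Junb and Ccn2 were higher at ZT12 (log2 -0.96 and -0.93). Markers of stellate cells and fibroblasts moved in the same direction: 6 of 10 were higher at ZT0, Acta2 among them on both lists, and their summed level ran from 260 to 427 CPM at ZT0 and from 222 to 356 CPM at ZT12. Of 10 endothelial markers, 5 were higher at ZT0, with sums of 245 to 363 CPM and 198 to 344 CPM. With the second cycle alone these counts were 2 and 2, and 8 for the SRF list. The part of these cells in the actin result was not tested. In whole tissue, fewer cells of a type and less RNA per cell cannot be told apart.

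Other marker lists were checked in the same way. Kupffer cell and macrophage markers did not pass the test for 9 of 10 members, and the call of the other, Marco, was lost without the 3 libraries that stood apart. Of the 6 cholangiocyte markers tested, 3 were higher at ZT0, among them Sox9 (3.27-fold) and Krt19 (2.14-fold), whereas Krt7, Epcam and Spp1 were not called, with log2 ratios of 0.01 to 0.04. Of 10 lymphocyte markers, Cd4 and Ighm were 3.52-fold and 2.39-fold higher at ZT0 and the other 8 were not called, Cd3e among them. The summed lymphocyte level, 21.1 to 48.8 CPM at ZT0 and 8.82 to 19.6 CPM at ZT12, was mostly Ighm. Red cell markers showed 1 call of 5 tested. Of 9 neutrophil markers, 7 were under 0.5 CPM in every library, Ly6g at 0 among them, and the 1 tested, S100a9, was 1.61-fold higher at ZT0 with overlap (adjusted p = 0.022). The summed neutrophil level was 0.589 to 2.93 CPM at ZT0 (median 1.22) and 0.384 to 1.12 CPM at ZT12 (median 0.657). Of 6 transcripts tested as signs of RNA quality, 3 were higher at ZT12: the mitochondrial ribosomal RNAs mt-Rnr1 and mt-Rnr2 (1.47-fold and 1.63-fold) and Lars2 (1.48-fold), each with overlap. Neat1 was higher at ZT0, and Malat1 and Gm42418 were not called. The part of these transcripts and markers in the other differences was not tested.

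Targets of the glucocorticoid receptor were mostly higher at ZT12, 12 of 17 against 3, with a median log2 ratio of -1.03. In mice blood corticosterone is known to peak near lights-off. Fkbp5, a co-chaperone of the receptor, ranged from 12.1 to 31.3 CPM at ZT0 and from 61.3 to 107 CPM at ZT12, 4.34-fold with no overlap (log2 -2.12 ± 0.14, adjusted p = 9.0e-13). The metallothionein Mt1 was 6.98-fold and Zbtb16, a transcription factor, 3.86-fold higher at ZT12. Tsc22d3, another classic target, had a log2 ratio of -0.30 ± 0.13 (adjusted p = 0.049), and this call was lost without the 3 libraries that stood apart (adjusted p = 0.098) and with library totals (adjusted p = 0.085). Pdk4 and Cdkn1a, also on the list, were higher at ZT0. Per1 and Angptl4 are counted on this list as well as above.

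In the insulin and growth hormone axis, 4 of 21 genes were higher at ZT0 and 11 at ZT12. Foxo1, which drives fasting genes, was 1.89-fold higher at ZT12 with no overlap (26.3 to 36.3 CPM against 48.8 to 68.3 CPM), and Irs1 and Stat5b, which relay insulin and growth hormone signals, were 1.72-fold and 1.63-fold higher at ZT0. Autophagy genes were higher at ZT12 for 10 of 21 and at ZT0 for 4, a called share of 66.7% against 57.0% of all genes tested. Ulk1, the kinase that starts autophagy, was 2.23-fold and Bnip3, a mitophagy receptor, 2.79-fold higher at ZT12, and the adaptor Sqstm1 1.32-fold higher at ZT0. Of 19 cell cycle genes, 4 were higher at ZT0 and 8 at ZT12, a called share of 63.2%. Cdkn1a, the inhibitor p21, was 14.7-fold higher at ZT0 (10.9 to 22.9 CPM against 0.382 to 1.78 CPM). Wee1, a kinase that holds mitosis, was 6.25-fold and Ccne1, cyclin E1, 10.1-fold higher at ZT12, all 3 with no overlap. Mki67, a marker of dividing cells, was not called.

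Several housekeeping groups shifted little but in 1 direction. Of 25 genes of oxidative phosphorylation, 22 were higher at ZT12 and none at ZT0, with a median log2 ratio of only -0.14. That count was 15 with library totals, 11 with the second cycle alone and 8 when all 77 liver libraries shared the fit. Of 28 ribosomal protein genes, 14 were higher at ZT12 and none at ZT0 (median -0.13), a called share of 50%, below that of all genes tested. The count was 8 with library totals, 2 with the first cycle alone and 3 with all 77 libraries. No library was left out of the 77 for its depth or its share of Gm42418. Many of these genes have processed pseudogenes, so their counts are uncertain. The proteasome divided by part: 13 of 27 genes were higher at ZT0, such as Psmd11 and Psmd14 of the regulatory particle (1.44-fold and 1.41-fold, no overlap), and 5 were higher at ZT12, all of the core particle. All 7 genes of cold-inducible RNA binding proteins and CLK kinases were higher at ZT12, among them Cirbp at 1.51-fold. Of 20 genes of ribosome biogenesis, 3 were higher at ZT0, 6 at ZT12 and 11 were not called, a called share of 45% that lies below the 57.0% of all genes tested. Of these, the nucleolar genes Ncl and Npm1 were 1.5-fold and 1.53-fold higher at ZT12, and Nat10 1.58-fold higher at ZT0.

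Secreted plasma proteins that belong to the acute phase were higher at ZT0 for 11 of 18 genes and at ZT12 for 2. The 3 fibrinogen genes, neighbours on chromosome 3, were all higher at ZT0 with no overlap: Fga 1.53-fold, Fgg 1.47-fold and Fgb 1.31-fold. In absolute terms Fga differed by 1961 CPM, with means of 5362 and 3402 CPM. The strongly inducible Saa1 overlapped widely, at 16.7 to 126 CPM against 16.7 to 39.9 CPM (log2 0.76 ± 0.30, adjusted p = 0.032). Of 18 interferon-stimulated genes, 6 were higher at ZT0 and 1 at ZT12, and 11 were not called. That called share, 38.9%, lies below the 57.0% of all genes tested. Stat2, a transducer of the interferon signal, was 1.52-fold higher at ZT0 with no overlap. Neat1, the RNA that scaffolds paraspeckles, was 2.90-fold higher at ZT0 (539 to 1566 CPM against 240 to 440 CPM).

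Some further genes share exonic bases with neighbours, so that part of their counts is uncertain: Sds (29.6%), Irs1 (30.9%), Vcl (25.5%), Bnip3 (22.3%), Pklr (22%), Bhlhe41 (19%), Sqstm1 (17.3%), Sirt3 (12.7%) and Hmgcs1 (12.1%).

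Outside the lists, the largest folds at ZT0 included Slc34a2, a phosphate transporter (2.44 to 15.5 CPM against 0.0329 to 0.419 CPM, log2 5.62 ± 0.29), and Loxl4, a lysyl oxidase relative (log2 4.66 ± 0.22). Tubb2a, a beta tubulin, reached 139 to 199 CPM at ZT0 against 5.76 to 23.8 CPM at ZT12 (log2 3.78 ± 0.17, adjusted p = 4.4e-16). At ZT12, Rgs16, a regulator of G protein signalling, had a median of 77.4 CPM against 0.696 CPM at ZT0 (log2 -6.16 ± 0.41, adjusted p = 9.9e-13). Mfsd2a, a transporter of lysophospholipids, and Gpcpd1, a glycerophosphocholine phosphodiesterase, were 11.2-fold and 8.79-fold higher at ZT12. All 6 genes had groups that did not overlap, as did all 30 genes chosen for the largest folds, 15 in each direction. Choosing by fold in these same libraries makes that likely in advance, so it adds no further result. Over all genes tested, 12.4% had groups that did not overlap.

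Cortex and hypothalamus of the same 24 mice showed how far the liver differed. In cortex 5321 of 18038 genes were called between ZT0 and ZT12 (29.5%), 598 of them at 1.5-fold or more (3.32%), and in hypothalamus 2508 of 18709 (13.4%), 320 of them at 1.5-fold or more (1.71%). The difference between tissues was tested as an interaction with the mouse as a block. It was called for 6622 of 13561 genes between liver and cortex (48.8%) and for 5697 of 13758 genes between liver and hypothalamus (41.4%). Of 1846 genes with a liver difference of 1.5-fold or more that were tested in both, 487 were called in the same direction in cortex (26.4%) and 192 in the opposite direction (10.4%). In hypothalamus these were 294 (15.5%) and 91 (4.80%) of 1897. Of the 27 clock genes tested, the difference from liver was called for 21 in each brain region.

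**Figure D5:**
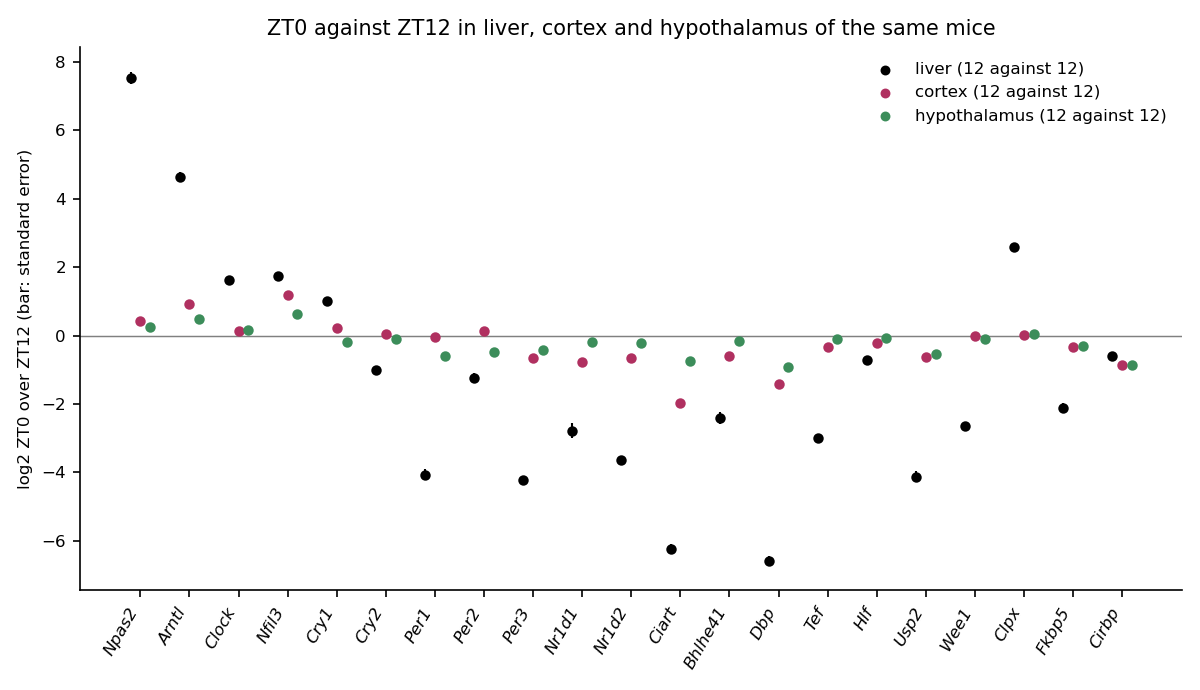
Log2 ratio of ZT0 over ZT12 with its standard error for 21 genes in liver (black), cortex (red) and hypothalamus (green), 12 mice per time in each tissue. The liver ratio of Npas2 (7.53) stands beside 0.43 in cortex and 0.24 in hypothalamus, and that of Dbp (-6.58) beside -1.41 and -0.93, and Cirbp is the case where the brain ratios (-0.87 and -0.86) are larger than that of liver (-0.60).

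Of the 22 clock genes called in liver, 14 were called in the same direction in cortex and 1, Klf10, in the opposite one, and in hypothalamus 12 were called in the same direction and 1, Cry1, in the opposite one. The log2 ratio of all 22 was smaller in size in each brain region than in liver. These 22 were chosen by their call in liver, which favours a larger ratio there. Of the 5 not called in liver, Rora, Csnk1d, Csnk1e and Fbxl21 had a ratio larger in size in both brain regions. Timeless (-0.08 in liver) had a larger one in hypothalamus (0.32) and a smaller one in cortex (0.01). Npas2 was 51.4 to 64.6 CPM at ZT0 and 40.3 to 48.7 CPM at ZT12 in cortex, against a fall to near 0 in liver, and the difference in log2 ratio was 7.10 ± 0.17 (adjusted p = 1.3e-22). Dbp in cortex was 24.9 to 59.6 CPM at ZT0 and 76.3 to 108 CPM at ZT12 (log2 -1.41 ± 0.09), so its ZT12 level was near that of liver and its ZT0 level was well above it. Per1 had no called difference in cortex (log2 -0.05 ± 0.09, adjusted p = 0.72), against -4.07 ± 0.16 in liver. Cry1 was lower at ZT0 in hypothalamus (log2 -0.18 ± 0.04, adjusted p = 0.0063) and higher in liver, a difference of 1.21 ± 0.12. Tef differed from liver by -2.66 ± 0.06 in cortex and -2.91 ± 0.06 in hypothalamus. Clpx, a mitochondrial protease subunit at 256 to 391 CPM in liver at ZT0 and 49.1 to 62.4 CPM at ZT12, was not called in cortex (log2 0.02 ± 0.04), and its difference from liver was 2.57 ± 0.06. Some of the cortex contrast depends on 1 library: without ZT0 replicate 1, 6620 genes were called in cortex alone, and of the 1846 genes 571 were called in the direction of liver and 264 in the opposite one.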

How the data were processed

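Livers of 24 mice were compared, 12 at ZT0 and 12 at ZT12, as the labels group them. The authors deposited whole read counts per gene and FPKM values. Reads were aligned with STAR 2.7.3a to GRCm38 (also named mm10) and counted with HTSeq 0.10.0, per the submitters' processing notes. Which gene models were counted, and whether strand was used, is not given in the sources used here. Deposited FPKM were used only to set levels of different genes side by side.

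Genes were filtered with filterByExpr of edgeR 4.0.16 (R 4.3.3), scaled by TMM and tested with the quasi-likelihood test over the 24 libraries with no covariate, and p-values were adjusted by Benjamini-Hochberg over all genes tested. The difference between cycles and that between tissues were interaction terms, the latter with the mouse as a block. DESeq2 1.42.0 was an alternative. Gene lists, markers and the groups themselves were chosen with earlier results of these data known. Genes named are the clock genes, up to 3 genes per list and direction with the smallest adjusted p, the 15 largest folds in each direction, and the 4 smallest adjusted p for the difference between cycles and for that between liver and each other tissue (means of at least 1 log2 CPM for folds and tissues); other list members were named after their values were seen. On simulated counts with the liver design, 85% of genes changed 1.5-fold and 98% of those changed 2-fold were recovered. For the difference between cycles these were 35% and 72%. False calls made up 5.18% and 8.55% of the calls. They made up 6.29% for liver against cortex and 9.24% for liver against hypothalamus, above the 5% aimed at. In the liver simulation 100 of 14772 genes were changed at each fold, a far smaller share than the 57.0% called in the data.

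Alternatives tried were other scalings, DESeq2, other filters, all 77 liver libraries in the fit, the replicate number, cycle or L code (a label whose meaning is not given) as a covariate, each cycle alone, and leaving out the 3 libraries that stood apart. Some genes that the rule selects are not reported here.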

Additional observations from a re-analysis of the deposited data

Results flagged for a closer look

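The ZT0 to ZT12 difference differed between liver and cortex for 6622 genes and between liver and hypothalamus for 5697, by the interaction test with the mouse as a block. Between liver and cortex, the genes with the smallest p included Npas2, Tef and Clpx. The log2 difference, liver minus cortex, was 7.10 for Npas2, -2.66 for Tef and 2.57 for Clpx. Between liver and hypothalamus they were Npas2 (7.29), Ciart (-5.47), Dbp (-5.63) and Tef (-2.91). Npas2, the partner of ARNTL, had a log2 ratio of 0.43 in cortex and 0.24 in hypothalamus against 7.53 in liver. Tissues were whole samples, so differences in their cell types and in the RNA per cell cannot be told apart here.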

How the results depend on the processing

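The number of genes called between ZT0 and ZT12 was 8415 and ran from 5967 with the second cycle alone to 8593 with no filter on low counts. Genes at 1.5-fold or more numbered 2179, and 1743 with a mean CPM of at least 1 or 3030 with no filter. With library totals in place of TMM, the share of calls higher at ZT0 was 59.0% in place of 50.3%, and the median log2 ratio of all genes was 0.055 in place of 0.0087. Over 2802 recomputed values of 234 named genes, 2730 kept direction and call, 69 lost the call, 3 gained it and none reversed. Of 1152 recomputed list counts, 1076 stayed within 1.5 times the reported count and 76 did not. With the replicate number as a block, 8243 genes were called, and Lcn2 and Marco lost their call. The numbers are not shown to pair mice: deviations of same-numbered samples correlated at -0.33 to 0.36, over 0.1 in 4 of 12 pairs, and 5 of 24 samples correlated best with their own number. Without the 3 libraries that stood apart, 8383 genes were called, Alas2, Marco and Ttr lost their call, and the log2 ratio of Cyp2a4 was -2.37 in place of -3.49. The cause of these changes was not tested. Depth limits the lowest genes: Npas2 had at most 6 counts in a ZT12 library.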

Other observations

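Several abundant transcripts were among the called genes with the largest differences in mean CPM. Car3, a carbonic anhydrase, was higher at ZT0 by 1671 CPM, with means of 5341 and 3669 CPM, and C3, the central complement protein, by 1511 CPM, with means of 7663 and 6151 CPM. At ZT12 the mean of Selenop, the plasma selenium carrier, was 6318 CPM against 5087 CPM at ZT0. Uox, urate oxidase, had means of 3109 CPM at ZT12 and 1913 CPM at ZT0, and Slc38a3, a glutamine transporter, 2302 and 1128 CPM.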
